A study of Homo sapiens with 9 samples.

Results

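Long intergenic non-coding RNA (lincRNA) genes that were expressed in HaCaT cells, an immortalised human keratinocyte line, are described here across 2 compounds and their vehicle. They are the genes of type lincRNA in the deposited table whose mean over all 9 libraries was at least 1 CPM (a count scaled to the library's total of counted reads), with LUCAT1 and LINC00536 set aside by the rule. The rule kept 357 genes of 58676 in the table, where 7803 were typed lincRNA and 2695 of those had a read in any library. The genes were thus chosen by their mean CPM over these same libraries, and their level is given as description. RNA was sequenced after 14 h with 10 µM PRL-295, 250 nM CDDO-Me or 1% DMSO (the vehicle control), with 3 libraries per group. CDDO-Me, also called bardoxolone methyl, is a triterpenoid whose electrophilic group activates NRF2, a transcription factor that drives antioxidant genes. PRL-295 is a code name, and the title of the study concerns NRF2 activators that are not electrophilic. All groups are the same cell line, with no allele or transgene given. DMSO is listed for the control only, so whether the compound cultures also held it is not known here, and nothing in the labels says that replicate libraries were made from different cultures. Each p-value thus measures the spread between these samples, which may be technical.

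LincRNAs are transcribed, and many of them spliced, like messenger RNAs but are not annotated as coding for protein. Some build nuclear bodies or hold proteins in place, some are hosts from whose introns or exons small RNAs are cut, and others are transcribed from the promoters or enhancers of neighbouring genes. In keratinocytes, lincRNAs such as TINCR and LINC00941 are known for their parts in epidermal differentiation. NRF2 binds antioxidant response elements in promoters and enhancers, usually together with a small MAF protein.

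Promoters were examined where a called gene had one annotated in RefSeq. Of the 13 genes called in any comparison below, 7 had an entry in the RefSeq promoter table (GRCh38.p14, 250 bases before to 50 after the start), and in 4 the RefSeq start lay within 1000 bases of the deposited gene start. Those 4 are shown, from 5′ to 3′ on the strand of the gene, with a match to TGACNNNGC, the core of the antioxidant response element, in capitals on whichever strand it was found. MANCR lies at chr10:4678021-4678320 on the minus strand, SH3TC2-DT at chr5:149063067-149063366, LINP1 at chr10:6737132-6737431 and GAS6-DT at chr13:113863927-113864226, all 3 on the plus strand.
MANCR: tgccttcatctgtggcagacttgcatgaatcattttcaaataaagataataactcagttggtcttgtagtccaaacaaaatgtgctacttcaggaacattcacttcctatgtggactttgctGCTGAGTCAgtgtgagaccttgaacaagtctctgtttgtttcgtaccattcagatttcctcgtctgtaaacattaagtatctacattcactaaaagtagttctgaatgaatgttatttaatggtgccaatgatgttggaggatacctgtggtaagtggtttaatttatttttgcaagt
SH3TC2-DT: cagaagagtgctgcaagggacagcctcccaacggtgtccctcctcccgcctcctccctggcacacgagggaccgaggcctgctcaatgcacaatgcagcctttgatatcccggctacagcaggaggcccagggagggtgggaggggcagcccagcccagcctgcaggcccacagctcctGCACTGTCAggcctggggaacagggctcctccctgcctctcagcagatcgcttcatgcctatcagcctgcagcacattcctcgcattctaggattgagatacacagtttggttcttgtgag
LINP1: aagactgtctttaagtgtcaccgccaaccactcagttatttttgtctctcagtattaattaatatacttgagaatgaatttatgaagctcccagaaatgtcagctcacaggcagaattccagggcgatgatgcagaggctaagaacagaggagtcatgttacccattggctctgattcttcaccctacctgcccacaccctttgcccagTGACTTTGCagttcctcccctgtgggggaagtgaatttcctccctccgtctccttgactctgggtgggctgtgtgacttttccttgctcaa
GAS6-DT: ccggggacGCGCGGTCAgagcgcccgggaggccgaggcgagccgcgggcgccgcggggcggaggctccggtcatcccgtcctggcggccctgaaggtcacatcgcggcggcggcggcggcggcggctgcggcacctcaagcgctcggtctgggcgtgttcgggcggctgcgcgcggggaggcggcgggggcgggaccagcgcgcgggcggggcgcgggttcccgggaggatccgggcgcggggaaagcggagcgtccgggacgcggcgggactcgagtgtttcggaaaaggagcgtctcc
Each of the 4 windows held 1 match to TGACNNNGC. Counted from the RefSeq start, the matches began at position -128 in MANCR, -71 in SH3TC2-DT, -41 in LINP1 and -242 in GAS6-DT. In MANCR the match overlaps one of 2 matches to TGANTCA, the AP-1 motif, in that window. The motif GCGTG, the core bound by the aryl hydrocarbon receptor, occurred in GAS6-DT only among the 4. On both strands, TGACNNNGC was found in 13.35% of all 35116 promoters of the table and in 22.09% of the 163 promoters matched to expressed lincRNA genes, GCGTG in 36.54% and 46.01%, and TGANTCA in 7.709% and 7.362%. For MALAT1, MIR23AHG and LINC02967 the RefSeq start lay 1283, 6629 and 13276 bases from the deposited one, and their windows, which held no TGACNNNGC, are not shown. Over all 7 windows, 4 held a match, so the limit of 1000 bases left out each window without one. A match of letters is a description and not a measurement of binding.

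One library stood apart. Library totals ran from 23383800 to 32942156 counted reads, so 3 counts correspond to 0.0911 to 0.128 CPM (a floor for counting error only, as reads carried no molecular identifiers). All 357 genes had a read in each PRL-295 library and in CDDO-Me 2 and 3, and 354 to 356 did in the DMSO libraries. In CDDO-Me 1, which had 31897090 counted reads, 65 of the 357 (18.2%) had 0 counts, 64 of them in that library alone, although the mean of such genes in the other 8 libraries reached 9.77 CPM, with a median of 1.81 CPM. The share at 0 in CDDO-Me 1 was 20.9% among lincRNA genes of 1 to 10 CPM, 10.7% among protein-coding genes of the same range and 15.2% among all tested genes. The libraries also differed in how counts followed GC content across genes, with correlations of -0.524 to 0.326 in PRL-295, -0.677 to 0.0284 in CDDO-Me and 0.378 to 0.420 in DMSO. Counts are therefore compared with and without CDDO-Me 1 below. All 10 keratinocyte markers passed 1 CPM, while 1 of 8 fibroblast markers, 2 of 6 melanocyte markers, 0 of 6 immune and 0 of 5 endothelial markers did.

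**Figure D1:**
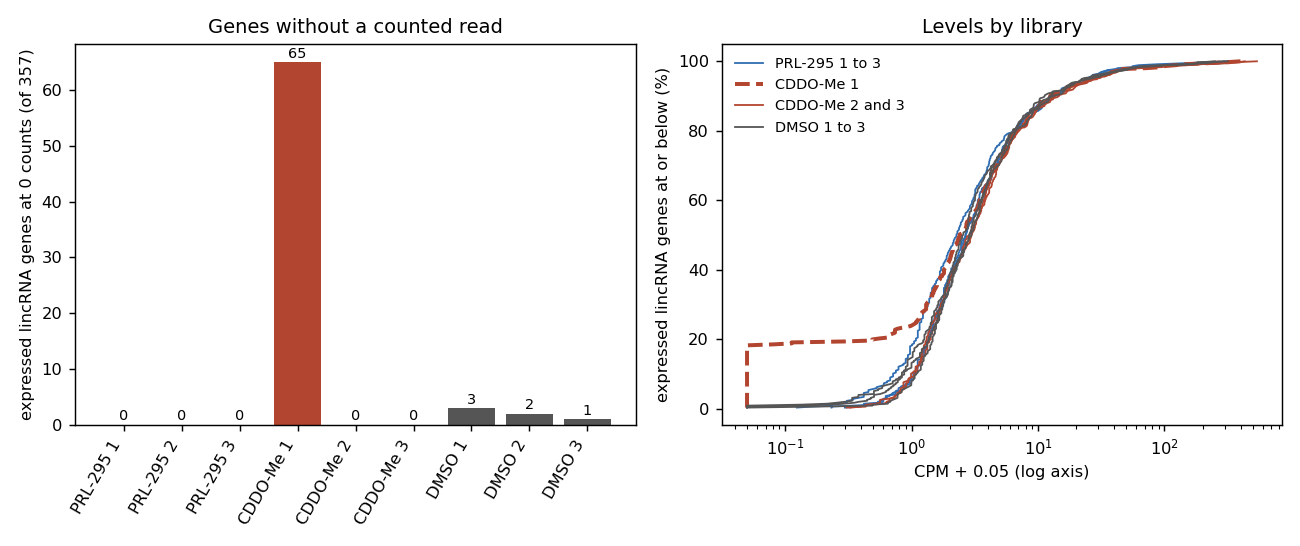
Left, the number of the 357 expressed lincRNA genes with 0 counts in each library, and right, the cumulative share of these genes (%) by level (CPM + 0.05, log axis), 1 line per library. CDDO-Me 1 holds 65 genes at 0, the other libraries 0 to 3, and its line leaves the others at the low end.

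As a class, expressed lincRNA genes were low, short and simple in structure. Their mean level over all libraries ran from 1.00 to 322.6 CPM with a median of 2.69 CPM, and 311 of the 357 were below 10 CPM. Per length, their median was 1.33 FPKM (the count scaled to the library total and to gene length), against 5.47 FPKM for the 11703 protein-coding genes past the same level. The median exonic length was 2256 bases, against 5131 bases, and the median number of exons in the longest transcript 2, against 8, with 111 single-exon lincRNA genes. Together they took 0.256% to 0.364% of the counts of a library, and the 10 genes with the most reads held 46.6% of that. For 158 of the 357, a protein-coding gene lay within 1000 bases, on the opposite strand in 120 cases. Another gene past 1 CPM overlapped 92 of them, and since the strand setting of the counting is not given, reads of such pairs cannot be told apart.

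The median SD of log2 CPM within a group was 0.27 in PRL-295, 0.47 in CDDO-Me and 0.33 in DMSO, against 0.19, 0.34 and 0.21 over all tested genes, and in CDDO-Me it came to 0.20 without CDDO-Me 1, against 0.18. Protein-coding genes of 1 to 10 CPM had a similar spread to lincRNA genes of that range, with medians of 0.28 in PRL-295, 0.48 in CDDO-Me and 0.31 in DMSO, against 0.28, 0.49 and 0.36 for the lincRNA genes. The widest within-group spreads were those of EPB41L4A-AS1, a host of small nucleolar RNA, KANTR and LINC00667, each at 0 in CDDO-Me 1. Just inside the threshold of the rule were RP11-667K14.3 at 1.0011 CPM, MIR503HG at 1.0017 CPM and RP11-297A16.4 at 1.0116 CPM. Just outside were RP4-555D20.4, RP11-79H23.3 and RP11-589P10.5, each at 0.996 CPM.

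Per length, the highest mean level was that of CH17-360D5.3, with 136.4 ± 53.3 FPKM in PRL-295, 204.8 ± 47.7 FPKM in CDDO-Me and 201.0 ± 26.4 FPKM in DMSO (SD, n = 3 each). It overlaps CH17-360D5.2, the eighth, on the same strand, so reads may be split between both. LINC03061, a single-exon gene at chr13:109269634-109273838, followed with 83.5 ± 5.39, 100.8 ± 28.4 and 45.9 ± 10.7 FPKM in PRL-295, CDDO-Me and DMSO. NORAD, a cytoplasmic RNA that binds PUMILIO proteins, averaged 42.1 ± 14.4, 63.0 ± 13.6 and 48.7 ± 10.2 FPKM in the same order. The remaining 6 of the top 10 were MIR23AHG, LINC01503, IQANK1 (FAM83H-AS1 in the deposited table), LINP1, LNCAROD and IGFL2-AS1. NORAD and MIR23AHG, neighbours in this order, overlapped in every group.

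**Figure D2:**
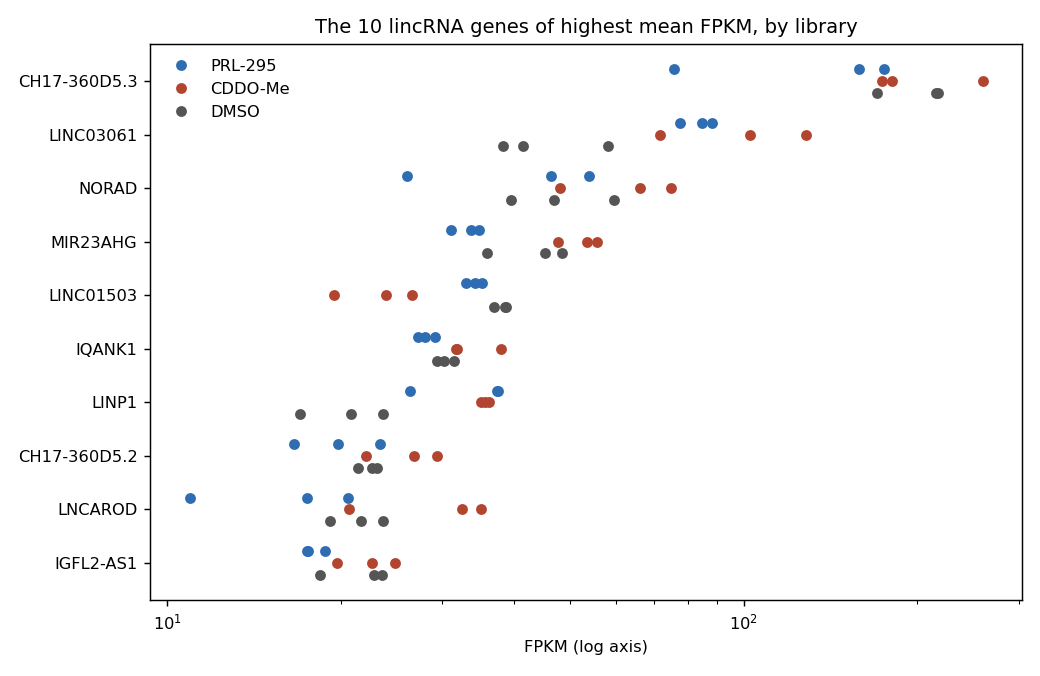
FPKM (log axis) of the 10 lincRNA genes of highest mean FPKM, 1 dot per library, 3 libraries per group. CH17-360D5.3 lies highest, and the DMSO dots of LINC03061 and LINP1 lie left of all PRL-295 and CDDO-Me dots of the same gene.

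Few lincRNA genes were called with CDDO-Me. Against DMSO, 12 of 357 were called by edgeR's quasi-likelihood test (adjusted p under 0.05, Benjamini-Hochberg over 16239 genes), which is 3.36%, against 9.22% of all tested genes. The 12 were 11 higher and 1 lower, against 4.65% higher and 4.57% lower among all tested genes. Among lincRNA genes of at least 10 CPM, 9 of 46 were called (19.6%), against 14.8% of protein-coding genes of that level, and among those of 1 to 10 CPM, 3 of 311 (0.965%), against 5.17%. Without CDDO-Me 1 the count was 25, against 16.5% of all tested genes, and it included all 12. Of the 25, 21 were higher (5.88%), against 9.08% of all tested genes, and 4 lower (1.12%), against 7.43%. Groups did not overlap for 80 genes (22.4%), against 31.9% of all tested genes. The median log2 fold change was 0.05 over lincRNA genes and 0.01 over all tested genes. After a correction for GC content and length these medians were 0.14 and 0.04. With that correction and without CDDO-Me 1, 12 of the 25 stayed called.

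MANCR, an RNA known from dividing breast cancer cells, and LINC02967 kept their calls for CDDO-Me against DMSO under each of the alternatives run. MANCR had 31.5, 22.5 and 26.4 CPM in PRL-295 libraries 1 to 3, 38.3, 49.9 and 43.1 CPM in CDDO-Me 1 to 3, and 15.8, 17.9 and 20.9 CPM in DMSO 1 to 3. All CDDO-Me libraries stood above all PRL-295 libraries, and these above all DMSO libraries. Its level rose 2.39-fold with CDDO-Me (log2 fold change 1.26, SE 0.18, edgeR adjusted p = 0.00243). It lies at chr10:4650185-4678154 and is overlapped on the other strand by LINC00705. LINC02967 (RP4-568C11.4 in the deposited table, chr20:24931840-24932983, a single exon) had 16.7, 27.0 and 17.7 CPM in PRL-295, 24.2, 32.9 and 20.4 CPM in CDDO-Me, and 6.39, 8.50 and 8.98 CPM in DMSO. The DMSO libraries lay below all others, while PRL-295 and CDDO-Me overlapped. It rose 3.23-fold with CDDO-Me (log2 fold change 1.69, SE 0.26, edgeR adjusted p = 0.00375).

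Among the called genes, the largest rises by fold were those of SFTA1P and LINC00707, both on the short arm of chromosome 10 together with MANCR and LINP1. That chromosome holds 24 of the 357 genes. An uncalled gene, MIR222HG, had a larger log2 fold change with CDDO-Me, 3.77 (edgeR adjusted p = 0.146). SFTA1P, a pseudogene related to surfactant-associated genes (chr10:10784437-10794980), had 9.98, 12.7 and 10.8 CPM in PRL-295, 7.93, 26.4 and 24.9 CPM in CDDO-Me, and 3.18, 2.73 and 6.52 CPM in DMSO. CDDO-Me 1 was the lowest of the compound libraries, and no compound library overlapped DMSO. Its log2 fold change with CDDO-Me was 2.24 (SE 0.45, edgeR adjusted p = 0.0133). LINC00707 (chr10:6779598-6842906) had 5.92, 3.91 and 3.29 CPM in PRL-295, 6.99, 17.8 and 9.07 CPM in CDDO-Me, and 2.64, 2.49 and 3.02 CPM in DMSO. The groups did not overlap, with CDDO-Me 2 well above the rest, and its log2 fold change with CDDO-Me was 2.05 (SE 0.38, edgeR adjusted p = 0.00909). LINC03061, given above per length, had 370, 356 and 326 CPM in PRL-295, 301, 539 and 432 CPM in CDDO-Me, and 161, 174 and 245 CPM in DMSO. It rose 2.19-fold with CDDO-Me (log2 fold change 1.13, SE 0.21, edgeR adjusted p = 0.00879). Leaving out DMSO 1 or DMSO 2 ended the calls of SFTA1P (edgeR adjusted p = 0.0723 and 0.0727) and LINC03061 (0.0514 and 0.0560), and leaving out DMSO 2 that of LINC00707 (0.0529).

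MALAT1 rose with CDDO-Me as well, with a wide spread. MALAT1, an abundant nuclear RNA of the speckles where splicing factors gather (chr11:65497762-65506516), had 108, 24.6 and 60.2 CPM in PRL-295, 94.8, 185 and 195 CPM in CDDO-Me, and 51.6, 41.6 and 52.3 CPM in DMSO. PRL-295 libraries lay on both sides of the DMSO range, and CDDO-Me 1 was below PRL-295 1. Its log2 fold change with CDDO-Me was 1.70 (SE 0.42, edgeR adjusted p = 0.0323). The call ended without DMSO 1, 2 or 3 or without CDDO-Me 2 or 3 (edgeR adjusted p = 0.109, 0.133, 0.0904, 0.0753 and 0.0873) and under limma on log2(FPKM + 1) and log2(FPKM + 0.1) (limma adjusted p = 0.0599 and 0.0694). It also ended with a replicate block, a term for the replicate number (edgeR adjusted p = 0.0584). LINC01204 (chrX:45505388-45630202) had 3.82, 3.18 and 3.36 CPM in PRL-295, 6.11, 5.94 and 4.58 CPM in CDDO-Me, and 1.49, 1.49 and 2.27 CPM in DMSO, in 3 ranges that did not overlap. Its log2 fold change with CDDO-Me was 1.66 (SE 0.32, edgeR adjusted p = 0.0116), and the adjusted p was 0.0606 after a GC and length correction, 0.0602 without DMSO 1, 0.0607 without DMSO 2 and 0.0520 without CDDO-Me 2.

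A further pair of genes that rose start beside a protein-coding gene on the other strand. SH3TC2-DT (CTC-529P8.1 in the deposited table), whose promoter is printed above, starts 154 bases from SH3TC2. It had 3.04, 1.92 and 3.43 CPM in PRL-295, 6.77, 6.08 and 6.46 CPM in CDDO-Me, and 2.19, 2.64 and 2.77 CPM in DMSO, so that all CDDO-Me libraries stood above the rest. Its log2 fold change with CDDO-Me was 1.34 (SE 0.31, edgeR adjusted p = 0.0257), and that of SH3TC2 was 0.72 (edgeR adjusted p = 0.0232). GAS6-DT (GAS6-AS2 in the deposited table) starts 101 bases from GAS6, which encodes a ligand of the TAM receptors. It had 12.9, 12.9 and 10.8 CPM in PRL-295, 10.1, 17.0 and 13.9 CPM in CDDO-Me, and 6.93, 5.37 and 8.16 CPM in DMSO. All DMSO libraries lay below the others, and the log2 fold change with CDDO-Me was 1.00 (SE 0.24, edgeR adjusted p = 0.0307), while GAS6 had 0.04 (edgeR adjusted p = 0.851). Both calls ended when any of 6 libraries was left out. The edgeR adjusted p of SH3TC2-DT was then 0.104, 0.0865 and 0.0764 with DMSO 1, 2 or 3 removed, 0.0731 and 0.0671 with CDDO-Me 2 or 3 removed and 0.0530 with PRL-295 3 removed. For GAS6-DT the values with 1 library removed, in the same order, were 0.104, 0.129, 0.0534, 0.132, 0.0748 and 0.0658. The call of SH3TC2-DT also ended after the GC and length correction (edgeR adjusted p = 0.0613), and that of GAS6-DT with only the 6 libraries compared (0.0621). With a replicate block both calls ended (edgeR adjusted p = 0.0588 for SH3TC2-DT and 0.0723 for GAS6-DT).

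Of the called genes that rose, LINP1 and RP4-555D20.2 rose least. LINP1 is a scaffold RNA known from the repair of DNA double-strand breaks by end joining (RP11-554I8.2 in the deposited table, chr10:6737382-6739026). It had 24.2, 34.2 and 34.4 CPM in PRL-295, 32.6, 32.1 and 33.1 CPM in CDDO-Me, and 19.1, 15.6 and 21.7 CPM in DMSO. Both compounds lay above DMSO, and the CDDO-Me libraries hardly varied. Its log2 fold change with CDDO-Me was 0.79 (SE 0.19, edgeR adjusted p = 0.0271), and it was not called without DMSO 1 or 2, CDDO-Me 2 or 3 or PRL-295 3 (edgeR adjusted p = 0.0975, 0.124, 0.0807, 0.0684 and 0.0667). LINP1 was not called with a replicate block either (edgeR adjusted p = 0.0524). RP4-555D20.2 (chr3:44117299-44122365), which RP4-555D20.1 overlaps on the other strand, had 10.9, 7.79 and 11.1 CPM in PRL-295, 18.3, 13.1 and 15.9 CPM in CDDO-Me, and 9.24, 9.05 and 8.32 CPM in DMSO. CDDO-Me alone was above the DMSO range in every library, with a log2 fold change of 0.83 (SE 0.21, edgeR adjusted p = 0.0373). That call ended in 6 of the 9 fits that each leave out 1 library, with DMSO 1, 2 or 3, CDDO-Me 3 or PRL-295 1 or 3 removed (edgeR adjusted p = 0.110, 0.112, 0.123, 0.0850, 0.0529 and 0.0697). It also ended after the GC and length correction (edgeR adjusted p = 0.0877) and under limma on log2(FPKM + 1) and log2(FPKM + 0.1) (limma adjusted p = 0.0564 and 0.0617). With a replicate block the call of RP4-555D20.2 ended as well (edgeR adjusted p = 0.0693).

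LINC01503 was the one lincRNA gene called lower with CDDO-Me. It is known from squamous cell carcinoma, where TP63 drives it, and lies at chr9:129332300-129359538. LINC01503 had 54.5, 56.0 and 52.6 CPM in PRL-295, 31.1, 38.2 and 42.5 CPM in CDDO-Me, and 61.8, 61.4 and 58.9 CPM in DMSO. The 3 groups did not overlap, and CDDO-Me was lowest. Its log2 fold change with CDDO-Me was -0.71 (SE 0.14, edgeR adjusted p = 0.0115). The call ended without DMSO 1 or DMSO 2 (edgeR adjusted p = 0.0524 and 0.0604) and after the GC and length correction, where the log2 fold change was -0.31 and the adjusted p 0.178. The 12 called genes had a median GC content of 44.3%, against 49.4% over all 357.

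**Figure D3:**
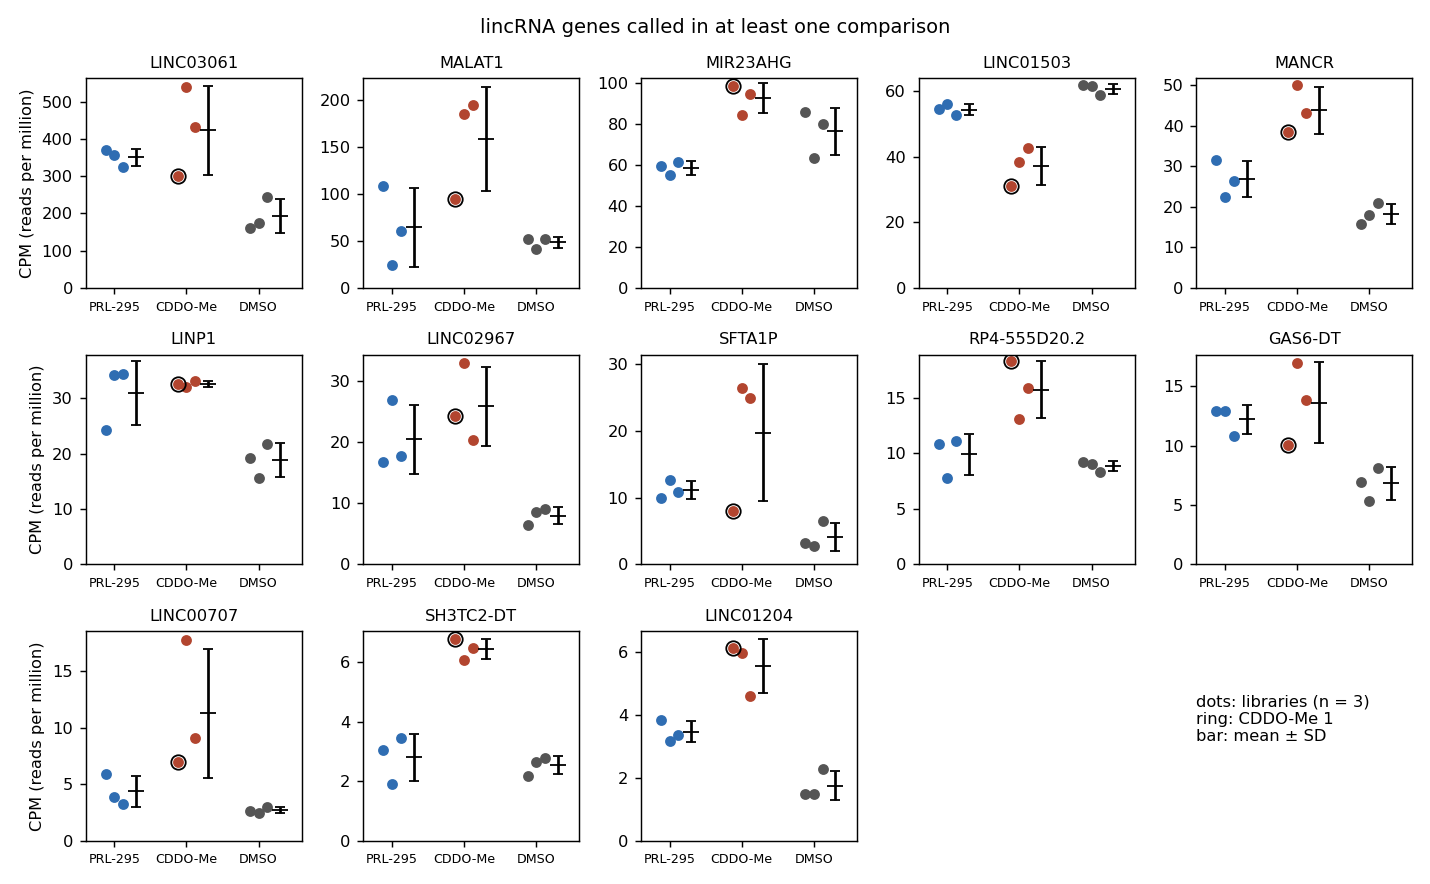
CPM of the 13 lincRNA genes called in at least 1 comparison, 1 dot per library (n = 3 per group), with the mean ± SD as a bar and CDDO-Me 1 ringed. In LINC01503 the CDDO-Me dots lie below those of DMSO, and in LINC02967 and LINC03061 both compounds lie above DMSO.

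PRL-295 changed fewer. Against DMSO, 1 of 357 lincRNA genes was called (0.280%), against 0.684% of all tested genes, and 19 (5.32%) had an unadjusted p under 0.05, against 12.9%. That gene was LINC02967, which rose 2.62-fold (0.462% of all tested genes were called higher and 0.222% lower; log2 fold change 1.39, SE 0.26, edgeR adjusted p = 0.0408). The call ended without any DMSO or any PRL-295 library or without CDDO-Me 3 (edgeR adjusted p of 0.0638 to 0.248) and after the GC and length correction (0.220), and under limma on log2(FPKM + 1) and log2(FPKM + 0.1) (limma adjusted p = 0.0586 and 0.0559). Groups did not overlap for 73 genes (20.4%), against 28.8% of all tested genes. Of the 11 genes that rose with CDDO-Me, LINC03061 had a log2 fold change of 0.89 with PRL-295 (edgeR adjusted p = 0.0909), LINP1 0.75 (0.117), GAS6-DT 0.87 (0.156) and SFTA1P 1.46 (0.190). Both compounds were set against the same DMSO libraries.

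Without CDDO-Me 1, which no PRL-295 value contains but which enters the shared estimate of spread, 10 lincRNA genes were called for PRL-295 against DMSO (2.80%), against 3.47% of all tested genes. They were 8 higher (2.24%), against 2.53%, and 2 lower (0.560%), against 0.937%. Among them were LINC02967, LINC03061, SFTA1P and GAS6-DT. TINCR, an RNA needed for keratinocyte differentiation, had 24.0, 31.6 and 27.8 CPM in PRL-295, 43.7, 31.1 and 31.2 CPM in CDDO-Me, and 49.3, 38.2 and 49.2 CPM in DMSO. PRL-295 did not overlap DMSO, and TINCR was called lower in this fit (log2 fold change -0.67, edgeR adjusted p = 0.0440), against an adjusted p of 0.155 with all libraries. The other lower gene was C14orf132, and the other higher ones LINC00519, RP11-527N22.2, LINC02762 and MIR222HG. With the GC and length correction added to this fit, 4 of the 10 stayed called.

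The direct comparison called 1 of 357 lincRNA genes (0.280%), against 1.59% of all tested genes (0.905% higher and 0.684% lower), and 39 (10.9%) had an unadjusted p under 0.05, against 17.2%. MIR23AHG (CTD-3252C9.4 in the deposited table, chr19:13834516-13836289) is named for the cluster of miR-23a, miR-27a and miR-24-2, and the deposited gene adjoins these hairpins on their 3′ side. It had 59.7, 55.0 and 61.6 CPM in PRL-295, 98.8, 84.4 and 95.02 CPM in CDDO-Me, and 85.8, 63.7 and 80.2 CPM in DMSO. PRL-295 lay below both other groups, and CDDO-Me overlapped DMSO. MIR23AHG was lower in PRL-295 relative to CDDO-Me (log2 fold change -0.63, SE 0.13, edgeR adjusted p = 0.0402). The call ended in each of the 9 fits that leave out 1 library (edgeR adjusted p of 0.0519 to 0.198). It also ended with only the 6 libraries compared and with a replicate block (edgeR adjusted p = 0.120 and 0.0547). After the GC and length correction it held (edgeR adjusted p = 0.0169). Groups did not overlap for 92 genes (25.8%), against 24.6% of all tested genes.

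None of the genes that rose with CDDO-Me was called in the direct comparison with all libraries, where edgeR called MIR23AHG alone. For some the interval of the difference, not adjusted for the number of genes, held 0, and for others it did not. The log2 difference, PRL-295 minus CDDO-Me, was -0.04 for LINP1 (95% interval -0.45 to 0.37), -0.12 for GAS6-DT (-0.65 to 0.41) and -0.30 for LINC02967 (-0.86 to 0.26). It was -1.17 for SH3TC2-DT (-1.86 to -0.49, edgeR adjusted p = 0.0922) and -0.68 for MANCR (-1.07 to -0.28, edgeR adjusted p = 0.0909). LINC00707 had -1.34 (edgeR adjusted p = 0.1001), and -1.59 without CDDO-Me 1 (0.0366). Without that library 3 genes were called (0.840%), against 1.68% of all tested genes, and MIR23AHG was not among them (edgeR adjusted p = 0.0713). They were LINC00707, KANTR and LASTR, an RNA known from splicing under stress in cancer cells. With the GC and length correction added to this fit, 2 of the 3 stayed called. LASTR (RP13-463N16.6 in the deposited table) had 13.1, 12.2 and 12.2 CPM in PRL-295, 0.251, 5.46 and 2.95 CPM in CDDO-Me, and 5.57, 8.14 and 10.2 CPM in DMSO. Its PRL-295 libraries stood above all others and its CDDO-Me libraries below, with a log2 difference of 1.60 (edgeR adjusted p = 0.0341) without CDDO-Me 1 and 2.15 (0.145) with it.

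**Figure D4:**
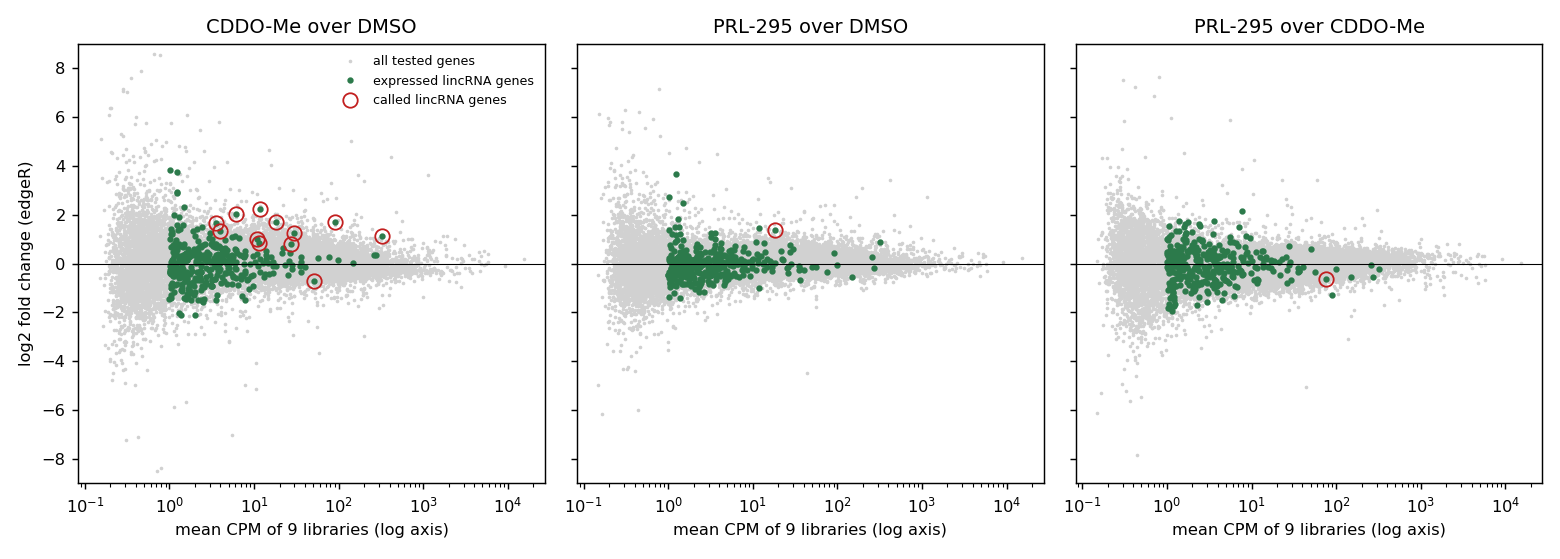
Log2 fold change by mean CPM of the 9 libraries (log axis) in the 3 comparisons, with all 16239 tested genes in grey, the 357 expressed lincRNA genes in green and those called ringed. For CDDO-Me over DMSO, 9 of the 12 rings lie at 10 CPM or more.

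The lincRNA genes gained without CDDO-Me 1 in CDDO-Me against DMSO, chosen after their values were seen, were 13, of which 4 held 0 counts in that library. KANTR, near TSPYL2 on the X chromosome, had 3.25, 2.18 and 3.62 CPM in PRL-295, 0, 7.62 and 7.40 CPM in CDDO-Me, and 3.09, 2.64 and 3.59 CPM in DMSO. LINC00667 had 6.37, 4.06 and 5.22 CPM in PRL-295, 0, 7.62 and 5.69 CPM in CDDO-Me, and 2.19, 3.19 and 3.43 CPM in DMSO. In both genes CDDO-Me 2 and 3 were above every DMSO library and CDDO-Me 1 below all. Without CDDO-Me 1 the log2 fold changes were 1.27 (edgeR adjusted p = 0.0139) for KANTR and 1.17 (0.0235) for LINC00667, and with it 0.68 (0.730) and 0.58 (0.765). MIR222HG, the host of miR-221 and miR-222, had 2.63, 1.85 and 0.621 CPM in PRL-295, 0, 3.85 and 1.75 CPM in CDDO-Me, and 0.289, 0 and 0.126 CPM in DMSO. RP1-27K12.2 had 1.27, 0.517 and 0.986 CPM in PRL-295, 1.69, 2.51 and 1.84 CPM in CDDO-Me, and 0, 0.395 and 0 CPM in DMSO. It lies within GCLC, on the same strand, so its reads may belong to that gene, an NRF2 target encoding a subunit of glutamate-cysteine ligase, whose log2 fold changes were 1.58 with PRL-295 and 1.89 with CDDO-Me (edgeR adjusted p = 0.000363 and 4.37e-05).

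By role, a list of architectural nuclear RNAs, which also holds the cytoplasmic NORAD, gave 1 call in 4 with CDDO-Me, MALAT1. NEAT1, the scaffold of paraspeckles, had 266 ± 53.7 CPM in PRL-295, 285 ± 125 CPM in CDDO-Me and 224 ± 64.3 CPM in DMSO (SD, n = 3 each), with a log2 fold change of 0.34 with CDDO-Me (edgeR adjusted p = 0.531). NORAD had 0.37 (0.380) and FTX, a regulator of XIST, 1.08 (0.135). Without CDDO-Me 1 the edgeR adjusted p was 0.0548 for NEAT1, 0.606 for NORAD and 0.117 for FTX. Among 21 tested genes for paraspeckle proteins, 1 was called with CDDO-Me, HNRNPM, which fell (log2 fold change -0.34, edgeR adjusted p = 0.0322), against 9.22% of all tested genes. Without CDDO-Me 1 the count was 5, against 16.5% of all tested genes, with HNRNPK, NUDT21 and ZNF24 higher (edgeR adjusted p = 0.0299, 0.0119 and 0.0395) and SMARCA4 and HNRNPM lower (0.0182 and 0.0376). With PRL-295, 0 of the 4 RNAs on the architectural list were called by edgeR, 0 by DESeq2, and 0 had an unadjusted p under 0.05.

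A list of 12 microRNA host genes, which does not hold MIR23AHG, gave 0 calls by edgeR in each comparison with all libraries. In that list 1 gene had an unadjusted p under 0.05 with PRL-295, 1 with CDDO-Me and 1 in the direct comparison, where 12.9%, 26.0% and 17.2% of all tested genes had one, and DESeq2 called 1 with CDDO-Me and 0 in each of the others. Without CDDO-Me 1, edgeR called MIR222HG higher with PRL-295 (adjusted p = 0.0440), and MIR222HG and MIR193BHG higher with CDDO-Me (0.0103 and 0.0444). In that fit 3.47% of all tested genes were called with PRL-295 and 16.5% with CDDO-Me. MIR22HG, MIR4435-2HG and MIRLET7BHG had log2 fold changes of 0.06, 0.26 and -0.02 with CDDO-Me (edgeR adjusted p = 0.945, 0.331 and 0.970). MIR4435-2HG and CYTOR are near-identical copies, so reads could be split between them. Of 6 hosts of small nucleolar RNAs, which guide the modification of ribosomal RNA, 0 were called by edgeR in each comparison, with or without CDDO-Me 1. Of these, 1 had an unadjusted p under 0.05 with CDDO-Me, 0 with PRL-295 and 1 in the direct comparison, and DESeq2 called 0 in each. Their log2 fold changes ran from -1.05 to -0.10 with CDDO-Me and from -0.25 to 0.47 with PRL-295. SNHG15, the highest of them in CPM, had 35.2 ± 6.998 CPM in PRL-295, 22.2 ± 3.00 CPM in CDDO-Me and 26.0 ± 7.93 CPM in DMSO (SD, n = 3 each).

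Among 7 lincRNA genes known from keratinocytes and epidermis, LINC00707 rose and LINC01503 fell with CDDO-Me, and 0 were called with PRL-295 by edgeR, where 1 had an unadjusted p under 0.05 and DESeq2 called 1. Over all tested genes, edgeR called 9.22% with CDDO-Me (16.5% without CDDO-Me 1) and 0.684% with PRL-295. LINC00941, a repressor of keratinocyte differentiation, had 5.12 ± 2.01 CPM in PRL-295, 10.1 ± 3.52 CPM in CDDO-Me and 4.91 ± 1.41 CPM in DMSO (SD, n = 3 each), with an edgeR adjusted p of 0.0973 for CDDO-Me against DMSO. LINC00958 had log2 fold changes of -0.13 and 0.05 with PRL-295 and CDDO-Me (edgeR adjusted p = 0.827 and 0.886). Of 12 growth-associated lincRNA genes, MALAT1 and MANCR rose and LINC01503 fell with CDDO-Me. By edgeR, 0 were called with PRL-295 and 0 in the direct comparison. In that list 5 genes had an unadjusted p under 0.05 with CDDO-Me, 1 with PRL-295 and 7 in the direct comparison. Over all tested genes, 26.0%, 12.9% and 17.2% had one. DESeq2 called 4, 0 and 2 of the list, in the same order. The lists share genes, so MALAT1 and LINC01503 are each counted in more than 1 list. CYTOR had a log2 fold change of 0.51 (edgeR adjusted p = 0.239), and 0.73 (0.0444) without CDDO-Me 1. Of 6 known from stress and hypoxia, MALAT1 rose, and CYTOR, also on that list, was called as well without CDDO-Me 1. Of 4 known from the p53 response, 0 were called with CDDO-Me by edgeR or DESeq2 and 0 had an unadjusted p under 0.05: PVT1, next to MYC, had a log2 fold change of -0.54 (edgeR adjusted p = 0.434) and MIR34AHG -2.10 (0.209). Without CDDO-Me 1 the edgeR adjusted p was 0.727 for PVT1 and 0.0590 for MIR34AHG. In the direct comparison edgeR and DESeq2 called 0 of the 4, and 2 had an unadjusted p under 0.05, against 17.2% of all tested genes.

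**Figure D5:**
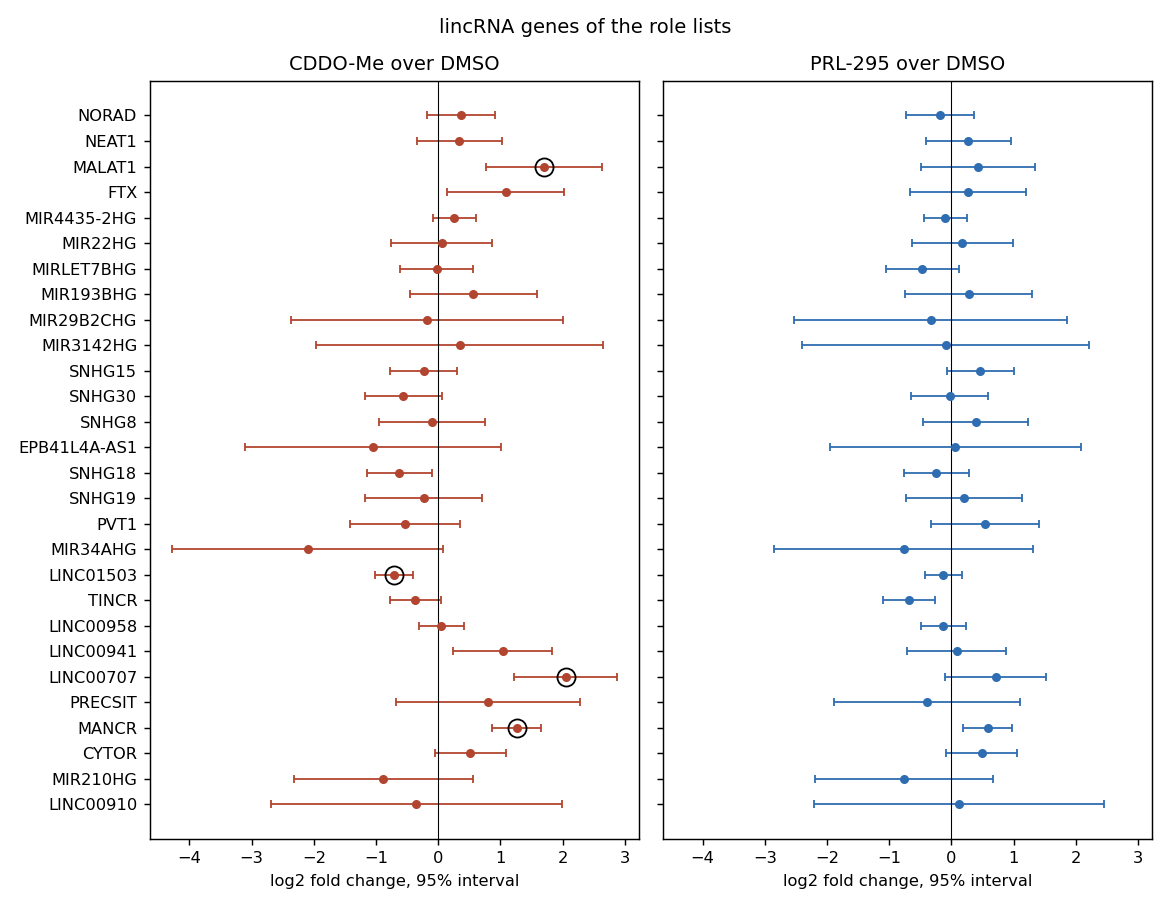
Log2 fold changes (points) with 95% intervals (bars) for the lincRNA genes of the role lists, up to 6 per list by CPM, for CDDO-Me over DMSO and PRL-295 over DMSO, with called genes ringed. MALAT1, LINC00707 and MANCR lie to the right and LINC01503 to the left in the CDDO-Me panel, and no gene is ringed for PRL-295.

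Protein-coding neighbours were read from the same fits. For each expressed lincRNA gene the nearest protein-coding gene was taken, and 288 such genes were tested. With CDDO-Me 43 of them were called (14.9%), against 12.3% of all protein-coding genes of at least 1 CPM. No such level was set for the neighbours, some of which were below it, so the sets are not alike. Within 1000 bases of a lincRNA gene, 28 of 142 were called with CDDO-Me (19.7%), 2 with PRL-295 (1.41%) and 1 in the direct comparison (0.704%). With PRL-295 against DMSO, 2 of 288 neighbours were called (0.694%), against 0.897% of those protein-coding genes, and in the direct comparison 5 (1.74%), against 2.14%. Of the 12 called lincRNA genes in CDDO-Me against DMSO, SH3TC2-DT had a called neighbour. The neighbours of SFTA1P, LINC01204, RP4-555D20.2 and LINC02967 did not pass the filter and were not tested. AKR1E2, 108475 bases from MANCR, had a log2 fold change of -0.26 (edgeR adjusted p = 0.700) and IER5L beside LINC01503 0.28 (0.394). PRKCQ, the neighbour of both LINP1 and LINC00707, had -0.25 (0.918).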

How the data were processed

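Per the labels' protocols and the submitters' processing notes, RNA was aligned to hg38 with STAR 2.5 and reads were counted per gene with HTSeq 0.6.1. The annotation release and strand setting are not given in the sources used here. The deposited counts are whole numbers of reads. The FPKM, per the labels computed by the authors from gene length and count, equalled count over length and library total for 100% of values within 0.1%. Gene types, coordinates and IDs are those of the deposited table, and current symbols replace older names where a reference table pairs them (237 of 357). GC content came from GENCODE 29, where 317 of the 357 genes were also typed lincRNA.

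Counts were tested with edgeR 4.0.16 (R 4.3.3; filterByExpr by group, TMM scaling, quasi-likelihood) in a single fit of 9 libraries, group as the only term, with Benjamini-Hochberg adjustment over 16239 genes in each of 3 comparisons and a threshold of 0.05. All 357 lincRNA genes passed the filter. CPM are counts over the library total. The pipeline was also run on simulated counts with known changes. These held no GC trend particular to a library and no library with added zeros like CDDO-Me 1, so they could not test either. Alternatives were DESeq2 1.42.0, limma 3.58.1, other scalings and filters, a replicate block, a GC and length correction, fits of 6 libraries and leaving out each library. The members and lists were chosen with earlier results of these data known. Named were called genes, the top 10 by FPKM, up to 6 genes per role list by CPM, the genes nearest the threshold, the 3 most variable and the neighbours of called genes (1 is not reported here); others were chosen after their values were seen. Figures were drawn with matplotlib 3.10.9.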

Additional observations from a re-analysis of the deposited data

How the results depend on the processing

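For CDDO-Me against DMSO, where 12 genes were called, DESeq2 called 26, no filter 25, limma on log2(FPKM + 1) 20 and the replicate block 7. For PRL-295 against DMSO, where 1 was called, the counts were 10 with DESeq2, 9 with no filter, 7 with only the 6 libraries compared, 5 with the GC and length correction without CDDO-Me 1, and 0 with limma at either pseudocount (1 or 0.1) or with the GC and length correction, alone or with the replicate block. For PRL-295 against CDDO-Me, where 1 was called, the counts were 11 with DESeq2, 15 with no filter, 3 with limma on log2(FPKM + 1), 0 with only the 6 libraries compared, 0 with the replicate block, 4 with the GC and length correction, 5 with that correction and the block, and 7 with that correction without CDDO-Me 1, a fit added after the data were seen. Leaving out 1 library gave 3 to 25, 0 to 10 and 0 to 3 calls, the highest each time without CDDO-Me 1, and the set itself held 352 to 361 genes. Same-numbered libraries did not deviate together (correlations of -0.137 to 0.104), so no pairing by number was seen. These correlations cannot exclude a pairing, because differences particular to single libraries also enter them. Of 294 values of called genes under alternatives, 210 stayed past the threshold, 84 did not and 0 changed sign; of 2478 values of uncalled ones, 61 passed. The causes were not tested. RLE scaling and library totals gave 12, 1 and 1 calls. With CDDO-Me, 3 of 311 genes below 10 CPM were called at this depth, so a gene not called is not shown to be unchanged.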
